A study of Danio rerio with 24 samples.

Results

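Brain tumors of rb1-targeted zebrafish were compared by how much neuronal RNA they held: 5 neuron-poor tumors (tumors 1, 2, 5, 8 and 10) were set against 5 neuron-rich tumors (tumors 3, 4, 6, 7 and 9), which together are all 10 tumors of the series. The 2 groups were chosen by the mean log2 CPM (a gene's count scaled to library size) of mature neuron genes in these same samples, so the difference in neuronal genes was selected for and carries no test. Every tumor came from a different adult zebrafish of strain WIK. TALENs, engineered nucleases that cut as pairs, had been used for somatic targeting of rb1, the retinoblastoma 1 gene, and such fish carry both targeted and untargeted cells. The labels give 6.5 to 10 months as the age of the fish, and both tumor groups share genotype, strain, tissue and age range. The reference for both was 2 pools of normal adult brain, each made from 3 wild-type siblings. RNA was taken from a large piece of brain and not from tumor alone, so a tumor sample may hold normal brain, in a proportion that was not measured. In such bulk RNA, fewer cells of a type and less RNA per cell cannot be told apart.

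The protein encoded by rb1 binds E2F transcription factors and holds cells out of the division cycle, and its loss in the nervous system is known for leaving precursors dividing that would otherwise become neurons. Mature neurons are recognised by genes of the synaptic vesicle machinery, neurofilaments and ion channels, which dividing precursors use little. Embryonal brain tumors of this kind are built mainly from cells that resemble neural and oligodendrocyte precursors, and the neurons found in a dissected tumor can be those of the brain around it or cells that matured within it.

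Each of the 12 RNA samples gave libraries a and b, which were summed, giving 24 libraries in all. Total counts ran from 20936101 to 23751365 in neuron-poor and from 18498108 to 24953666 in neuron-rich tumors, and were 19754932 and 21035458 in the pools. Among 5 technical measures, exact two-sided permutation tests gave p = 0.643 for total counts, p = 0.31 for genes with a count, p = 0.198 for the share of mitochondrial counts and p = 0.563 for the difference between libraries a and b, with adjusted p from 0.495 to 0.643. The 10 most abundant genes took 5.24 ± 0.228% of counts in neuron-poor and 4.71 ± 0.293% in neuron-rich tumors (exact permutation p = 0.0159, adjusted p = 0.0795 over the 5 measures), and 5 against 5 samples cannot give a p below 0.00794. The control libraries did not pair as labelled: libraries of the same letter from different pools differed by a chi-square of 1.00 and 1.01 per degree of freedom, where 1 is sampling noise, and libraries of different letters by 3.25 to 3.42. Between libraries a and b of the same tumor this value ran from 1.04 (tumor 5) to 1.60 (tumor 9). The pools as labelled thus behave as near-repeats of one sample, and their spread understates that between control brains. Counts carry no molecular identifiers, and a limit drawn from a single count, as for a count of 0 below, covers counting error only. The standard errors and SDs given below also include the spread between samples.

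Counts of rb1 (ENSDARG00000006782), the targeted gene, were found in every tumor. In the tumor order given above it had 28.6, 26.1, 27.3, 29.9 and 34.9 CPM in neuron-poor tumors, against 20.1, 18.8, 67.4, 32.1 and 101 CPM in neuron-rich tumors and 13.1 and 14.6 CPM in the control pools. Tumors 9 and 6 of the neuron-rich group stood above the other 8, whose values overlapped, and every tumor was above both pools. The log2 fold change of neuron-poor over neuron-rich tumors, the direction used for every log2 fold change between tumor groups here, was -0.70 (SE 0.41), with the standard error (SE) taken from the edgeR fit over all 12 samples, and it was -0.24 without tumor 9. A lesion made by a nuclease need not change the count of a transcript.

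The split itself cut a continuous scale. The mean log2 CPM of 36 mature neuron genes, a list that may differ from the one used to form the groups, was 5.42, 5.81, 6.21, 5.85 and 6.13 in the neuron-poor tumors and 6.79, 6.89, 6.62, 6.54 and 6.73 in the neuron-rich tumors, against 8.52 in both pools. The highest neuron-poor tumor was tumor 5 at 6.21 and the lowest neuron-rich one was tumor 7 at 6.54, a gap of 0.335 that was smaller than the 0.393 between tumors 1 and 2 within the neuron-poor group. Relative to the control pools, the median mature neuron gene stood at 8.71, 11.6, 15.7, 12.97 and 14.5% in the neuron-poor tumors and at 24.7, 27.2, 20.3, 20.05 and 22.6% in the neuron-rich tumors. The neuron-rich tumors were thus rich only beside the other tumors, since even tumor 4 held 27.2% of the control level at the median gene.

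**Figure D1:**
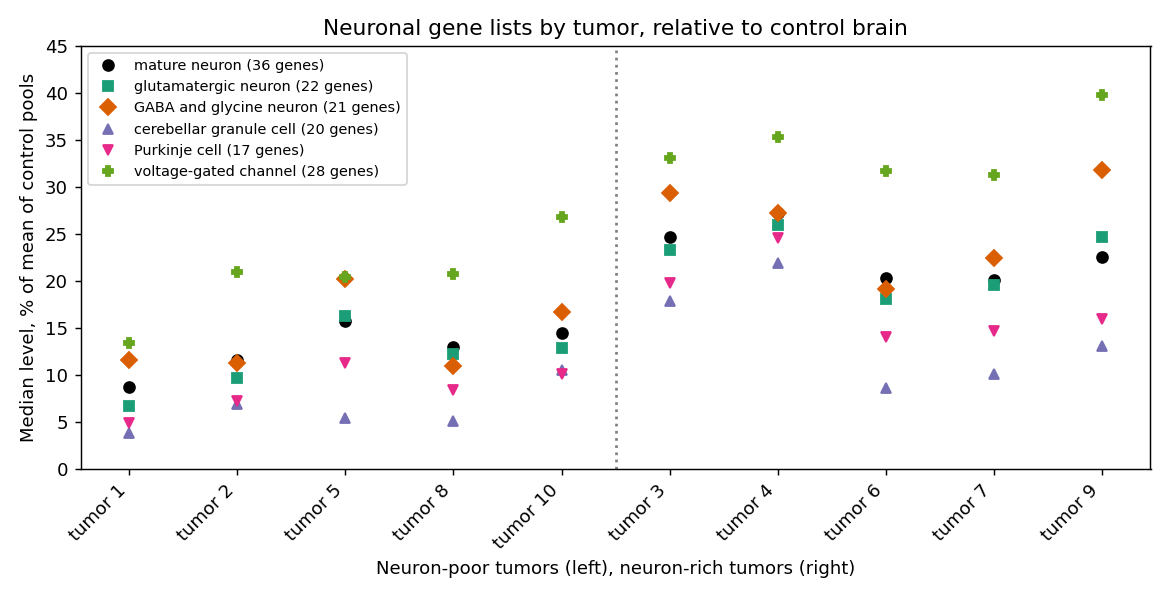
Median level of 6 neuronal gene lists in each tumor, as a percentage of the mean of the 2 control pools on a linear axis, with neuron-poor tumors left of the dotted line and neuron-rich tumors right of it. Each point is 1 list in 1 tumor. The mature neuron list runs from 8.71% to 15.7% in neuron-poor and from 20.05% to 27.2% in neuron-rich tumors, and the granule cell and Purkinje cell lists lie below it in every tumor.

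Across 20957 genes tested, a gene was counted as separating the groups where the 5 tumors of one group did not overlap the 5 of the other in log2 CPM and the edgeR log2 fold change was at least 2-fold. By this count 358 genes were lower in neuron-poor tumors (1.71% of all genes) and 26 were higher (0.124%). Without the fold condition, 907 genes were lower without overlap (4.33%) and 350 higher (1.67%). The rule used this contrast, so nothing is read from these counts, and the median gene differed by 0.04 on the log2 scale. As log2 fold changes of neuron-poor over neuron-rich tumors, just inside the 2-fold limit were rnd1b (-1.0007) and si:ch73-335m24.5 (-1.0029) among the lower genes and eno3 (1.02) among the higher, and just outside were kank4 (-0.99976) and plppr4a (-0.99787) on the lower and ifi30 (0.95) on the higher side. These counts depended on single tumors. The 358 lower genes became 187 without tumor 1, 768 without tumor 5, 626 without tumor 6 and 695 without tumor 10. The 26 higher genes became 50 without tumor 2, 74 without tumor 4, 42 without tumor 5, 59 without tumor 7, 42 without tumor 9 and 106 without tumor 10, and the absence of overlap is easier to meet with 4 samples in a group.

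Set beside the controls, nearly all lower genes were below normal brain in both tumor groups and lowest in the neuron-poor tumors. Of the 358, 353 (98.6%) had the neuron-rich mean between the neuron-poor and the control mean, and in 5 the control mean lay between the tumor groups. The median gene of the 358 stood at 10.1% of the control level in neuron-poor tumors and at 22.3% in neuron-rich tumors, with quartiles of 8.49% to 12.7% and of 18.8% to 28.7%. By edgeR's quasi-likelihood test with Benjamini-Hochberg adjustment over all genes, 317 of the 358 were below controls in both tumor groups, 35 in neuron-poor tumors without a call in neuron-rich tumors, and 6 in neither. Of the 26 higher genes, 16 had the neuron-rich mean between neuron-poor and control, 9 had the control mean between the tumor groups and 1 (gda, guanine deaminase) had the neuron-poor mean between the other 2. For 7 of the 26 both tumor groups were above controls, for 9 the neuron-poor group without a call in the neuron-rich group, and for 10 neither. Both comparisons use the same 2 pools, and since the genes were picked on the difference between the tumor groups, these counts are a description.

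**Figure D2:**
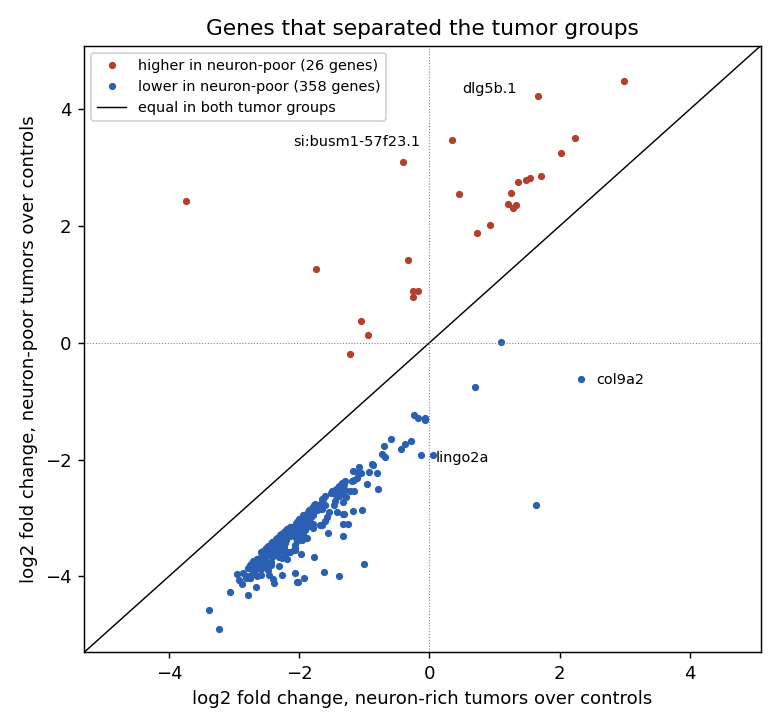
Log2 fold change over the control pools in neuron-poor tumors (vertical axis) and in neuron-rich tumors (horizontal axis) for the 26 genes higher and the 358 genes lower in neuron-poor tumors. Each point is 1 gene, the solid line marks equal change in both groups, and the distance from it is what selected the genes. Nearly all lower genes lie below 0 on both axes, while lingo2a lies near 0 for neuron-rich tumors and col9a2 lies above it.

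Over all genes, 5263 (25.1%) were higher and 5421 (25.9%) lower in neuron-poor tumors than in controls in the edgeR test, with 0.01 as the limit on the adjusted p and 1.5-fold as the smallest change. In neuron-rich tumors the counts were 4225 higher (20.2%) and 4533 lower (21.6%). Without control pool 1 the neuron-rich counts were 2667 higher and 2956 lower, and without control pool 2 they were 2646 and 2957, while the neuron-poor counts were 3558 higher and 4218 lower without pool 1 and 3512 and 4197 without pool 2. With control libraries summed by letter instead of by labelled pool, 5197 genes were higher and 5426 lower in neuron-poor tumors and 4126 higher and 4564 lower in neuron-rich tumors. The difference between the counts of the tumor groups was not tested.

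Mature neuron genes stand closest to the rule, and their values are a description. Of 36 genes, 33 had a negative log2 fold change (median -0.96), 11 were at least 2-fold lower without overlap (1.71% of all genes were), and 20 were lower without overlap (4.33% of all genes). The gene vsnl1a, which encodes a calcium sensor of neurons, had 29.6, 81.1, 72.7, 55.8 and 119 CPM in neuron-poor tumors, against 249, 186, 119.9, 128 and 145 CPM in neuron-rich tumors and 1169.9 and 1158 CPM in the control pools. All neuron-poor tumors lay below all neuron-rich tumors, with tumors 10 and 6 almost level, and all tumors lay far below the pools.

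The neuronal splicing factor gene rbfox3a, whose mammalian product is the nuclear marker NeuN, averaged 18.9 ± 7.56 CPM in neuron-poor and 43.6 ± 11.3 CPM in neuron-rich tumors (± gives the SD throughout, n = 5 each), with 283 CPM in controls and -1.20 (SE 0.27) as its log2 fold change. The neurofilament gene nefmb ranged over 2.37 to 4.72 CPM in neuron-poor and 4.02 to 11.5 CPM in neuron-rich tumors, and tumor 5 of the neuron-poor group lay above tumor 6 of the neuron-rich group. The sodium pump subunit gene atp1a3a, which neurons use, averaged 210.3 ± 60.6 CPM in neuron-poor and 422 ± 74.00 CPM in neuron-rich tumors and 2158 CPM in controls. The synaptic vesicle gene sv2a and the fusion regulator gene stxbp1a had log2 fold changes of -1.08 (SE 0.20) and -1.10 (SE 0.21). Of these 5 genes only nefmb overlapped between the groups.

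The tau gene copies differed. Copy maptb had 34.5, 31.00, 58.7, 51.8 and 49.8 CPM in neuron-poor tumors, against 102, 84.1, 191, 59.7 and 84.4 CPM in neuron-rich tumors and 382 and 388 CPM in the control pools, with no overlap between the tumor groups and tumor 6 the highest tumor. Copy mapta averaged 682 ± 258 CPM in neuron-poor and 571 ± 93.3 CPM in neuron-rich tumors and 192 CPM in controls, so its mean in both tumor groups was above the control mean, where that of maptb was below it. Counts of the a and b copies of duplicated zebrafish genes are uncertain where reads match both.

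Glutamate is the main excitatory transmitter of the brain. All 22 genes of the glutamatergic list had a negative log2 fold change (median -0.90), and 3 of them, gria2a, gria2b and gria3b, were at least 2-fold lower without overlap, set against 1.71% of all genes. The AMPA receptor subunit gene gria2a had 50.6, 58.98, 65.3, 85.6 and 94.3 CPM in neuron-poor tumors, against 132, 128, 198, 152 and 213 CPM in neuron-rich tumors and 361 and 349.6 CPM in the control pools. Neuron-poor tumors reached at most 94.3 CPM and neuron-rich tumors at least 128 CPM. The NMDA receptor subunit gene grin1b overlapped, at 20.04 to 116 CPM in neuron-poor and 92.3 to 319.7 CPM in neuron-rich tumors, and so did the vesicular glutamate transporter gene slc17a7a, at 1.9 to 19.7 CPM in neuron-poor and 10.4 to 42.96 CPM in neuron-rich tumors.

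GABA and glycine are the inhibitory transmitters. Among 21 genes of GABA and glycine signalling, 19 had a negative log2 fold change (median -0.94), and gad1b and gabrb2 were at least 2-fold lower without overlap, beside 1.71% of all genes. The GABA receptor subunit gene gabrb2 had 9.88, 25.1, 36.1, 20.9 and 37.9 CPM in neuron-poor tumors, against 66.4, 62.1, 44.6, 43.1 and 59.7 CPM in neuron-rich tumors and 375 and 378 CPM in the control pools. The gene gad1b, which encodes the enzyme that makes GABA, averaged 73.8 ± 26.6 CPM in neuron-poor and 151 ± 29.5 CPM in neuron-rich tumors and 894 CPM in controls. In the glycine receptor gene glra1 the groups overlapped, since neuron-rich tumor 6 had 17.4 CPM and neuron-poor tumor 2 had 28.3 CPM. The list score of tumor 5 (3.79) was above that of tumor 6 (3.65), so the groups also overlapped for the list.

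The cerebellar lists had the largest medians among neuronal lists. Granule cells are the small excitatory neurons of the cerebellum, and Purkinje cells are another of its neuron types. Of 20 granule cell genes, 19 had a negative log2 fold change, with a median of -1.10 that ran from -1.38 to -0.91 as each tumor was left out in turn, and only vsnl1b separated the groups by 2-fold, beside 1.71% of all genes. The granule cell transcription factor gene zic1 had 8.26, 37.1, 23.14, 18.9 and 58.9 CPM in neuron-poor tumors, against 97.5, 150.1, 44.2, 49.8 and 72.7 CPM in neuron-rich tumors and 706 and 719.7 CPM in the control pools. Tumor 10 lay above tumors 6 and 7, and tumors 3 and 4 of the neuron-rich group stood highest. The granule cell list score overlapped too, with tumor 10 (3.32) above tumors 6 (2.94) and 7 (3.30).

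All 17 Purkinje cell genes had a negative log2 fold change (median -1.08), and 6 of them, pcp4a, skor1b, lhx1a, lhx5, kcnc3a and cacna1ab, were at least 2-fold lower without overlap, beside 1.71% of all genes. The LIM homeodomain factor gene lhx1a (ENSDARG00000014018) had 2.99, 9.92, 7.16, 5.23 and 6.27 CPM in neuron-poor tumors, against 24.4, 15.3, 17.8, 31.98 and 12.9 CPM in neuron-rich tumors and 61.2 and 59.2 CPM in the control pools, a log2 fold change of -1.70 (SE 0.31) between the tumor groups. The Purkinje cell gene aldoca, which encodes the zebrin antigen, had 0.0950, 12.7, 4.72, 3.61 and 17.2 CPM in neuron-poor tumors, against 35.2, 56.3, 6.92, 14.1 and 9.57 CPM in neuron-rich tumors and 339.7 and 336 CPM in the control pools, so that tumor 1 was almost without it while tumors 2 and 10 exceeded tumors 6 and 9. At list level the score was 1.92, 2.82, 3.14, 2.71 and 3.27 in neuron-poor and 4.14, 4.41, 3.65, 3.65 and 3.81 in neuron-rich tumors, which did not overlap, against 6.42 and 6.39 in the pools.

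Of 28 voltage-gated channel genes, 26 had a negative log2 fold change (median -0.74), 12 did not overlap and 4 were also 2-fold lower, beside 4.33% and 1.71% of all genes. The genes kcnc3a and cacna1ab are counted both here and among the Purkinje cell genes, so the counts of these lists are not separate. The potassium channel gene kcnc3a, which serves fast-firing neurons, had 3.28, 8.83, 9.69, 8.60 and 12.1 CPM in neuron-poor tumors, against 25.3, 32.8, 13.97, 14.6 and 18.8 CPM in neuron-rich tumors and 121 and 119 CPM in the control pools. The calcium channel gene cacna1ab averaged 11.96 ± 4.78 CPM in neuron-poor and 26.3 ± 9.09 CPM in neuron-rich tumors and 167 CPM in controls. Genes of monoamine and neuropeptide neurons were low and variable: the median of 28 genes was -0.77 and none was 2-fold lower without overlap, beside 1.71% of all genes. The list also held chata, the acetylcholine-making enzyme gene and so neither a monoamine nor a neuropeptide gene, and only chata did not overlap. It was at 1.61 to 5.90 CPM in neuron-poor and 6.22 to 8.75 CPM in neuron-rich tumors, beside 4.33% of all genes lower without overlap.

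Genes of younger neurons and of patterned brain regions overlapped for most members. Among 24 genes of new neurons and neuroblasts the median was -0.30 (-0.18 without tumor 6). Only ebf3a did not overlap (8.31 to 24.4 CPM in neuron-poor and 25.8 to 44.5 CPM in neuron-rich tumors), beside 4.33% of all genes lower without overlap. The list score, however, did not overlap between groups, at 4.27, 4.41, 4.39, 4.57 and 4.63 in neuron-poor and 5.13, 4.70, 4.89, 4.76 and 4.83 in neuron-rich tumors. Of 44 transcription factor genes that mark brain regions, 39 had a negative log2 fold change (median -0.83), and pax2a, irx1a, irx5a and tfap2a were 2-fold lower without overlap, beside 1.71% of all genes. The midbrain-hindbrain factor gene pax2a had 0.997, 2.93, 3.71, 3.57 and 3.47 CPM in neuron-poor tumors, against 7.08, 7.92, 5.72, 5.29 and 5.96 CPM in neuron-rich tumors and 38.6 and 39.1 CPM in the control pools. Tumor 1 was the lowest tumor for it, as it was for the mature neuron score.

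The largest differences among abundant genes were sought where the neuron-rich or neuron-poor mean, whichever was greater, reached 10 CPM. The 12 largest on the lower side ran from -2.95 for col9a2 to -1.36 for ssx2ipb on the log2 scale. The gene col9a2 (ENSDARG00000024492), which encodes a chain of collagen IX, had 0.285, 1.54, 2.57, 2.76 and 3.57 CPM in neuron-poor tumors, against 6.84, 4.86, 36.4, 17.1 and 17.8 CPM in neuron-rich tumors and 3.24 and 3.35 CPM in the control pools. Neuron-rich tumors were all above both pools, neuron-poor tumors 1, 2, 5 and 8 were below both and tumor 10 was above both, and tumors 6, 7 and 9 made up most of the difference. The gene lingo2a (ENSDARG00000074535), of a family of neuronal leucine-rich repeat membrane proteins, had 19.1, 13.3, 11.6, 29.7 and 20.2 CPM in neuron-poor tumors, against 73.2, 55.3, 90.5, 55.9 and 49.8 CPM in neuron-rich tumors and 71.5 and 71.02 CPM in the control pools, a log2 fold change of -1.79 (SE 0.25). Neuron-rich tumors lay around the pools for this gene, while every neuron-poor tumor was far below them.

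A locus without a gene name, CR786577.1 (ENSDARG00000097875), had 3.75, 2.53, 1.77, 5.13 and 3.95 CPM in neuron-poor tumors, against 16.4, 10.6, 18.1, 12.96 and 9.01 CPM in neuron-rich tumors and 13.4 and 12.5 CPM in the control pools, with tumors 6 and 3 highest and tumor 5 lowest as for lingo2a. For lingo2a the log2 fold change over controls was -1.92 in neuron-poor and -0.13 in neuron-rich tumors, and for CR786577.1 it was -1.92 and 0.05. In both genes the 5 neuron-rich tumors lay on either side of the control pools. Among the 358 lower genes, 9 had a neuron-rich level within 1.5-fold of controls, and 4 of these averaged at least 10 CPM in neuron-rich tumors: lingo2a, CR786577.1, the receptor gene gfra2b for GDNF-family ligands (24.5 ± 4.31 CPM in neuron-poor and 53.02 ± 24.2 CPM in neuron-rich tumors, 59.8 CPM in controls) and si:ch211-246i5.5 (11.77 ± 4.16 CPM in neuron-poor and 23.6 ± 6.63 CPM in neuron-rich tumors, 27.8 CPM in controls). The genes gfra2b and si:ch211-246i5.5 were singled out after their values were seen.

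In most other large differences the tumors all lay below the pools. The Purkinje-enriched regulator gene rgs8 had 4.13, 8.58, 10.1, 9.08 and 13.8 CPM in neuron-poor tumors, against 17.8, 21.3, 39.5, 24.1 and 38.6 CPM in neuron-rich tumors and 70.02 and 70.11 CPM in the control pools, and the doublecortin-like kinase gene dclk1b had 7.84, 7.24, 15.5, 13.5 and 11.3 CPM in neuron-poor tumors, against 25.5, 24.02, 74.7, 23.2 and 21.3 CPM in neuron-rich tumors and 83.1 and 85.6 CPM in the control pools. Neuron-rich tumor 6 stood apart for dclk1b, at 74.7 CPM beside 21.3 to 25.5 CPM in the other 4. The gene cp, which encodes the copper-carrying oxidase ceruloplasmin, had 10.4, 28.7, 45.5, 42.5 and 56.5 CPM in neuron-poor tumors, against 136, 158, 88.1, 68.8 and 78.6 CPM in neuron-rich tumors and 674 and 669 CPM in the control pools. Tumor 1 was lowest for rgs8 and cp.

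Genes of thyroid hormone and retinoid handling were among the 12. The deiodinase gene dio2, whose product makes active thyroid hormone, had 3.75, 4.41, 5.73, 5.42 and 3.42 CPM in neuron-poor tumors, against 17.03, 8.97, 5.93, 21.9 and 9.57 CPM in neuron-rich tumors and 53.6 and 53.7 CPM in the control pools. Tumors 5 and 6 were close, at 5.73 and 5.93 CPM. The gene cyp26b1, whose product degrades retinoic acid, had 2.66, 3.87, 3.79, 8.22 and 8.34 CPM in neuron-poor tumors, against 23.7, 12.1, 12.77, 9.39 and 12.4 CPM in neuron-rich tumors and 86.7 and 81.7 CPM in the control pools. The secreted ependymin gene epd, abundant in fish brain and named after its values were seen, averaged 1095 ± 299.8 CPM in neuron-poor and 2516 ± 613 CPM in neuron-rich tumors and 10650.0 CPM in controls. The log2 fold change was -1.46 (SE 0.28) for lingo1b, a relative of lingo2a, -1.71 (SE 0.29) for si:dkey-238o13.4 and -1.36 (SE 0.27) for ssx2ipb.

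**Figure D3:**
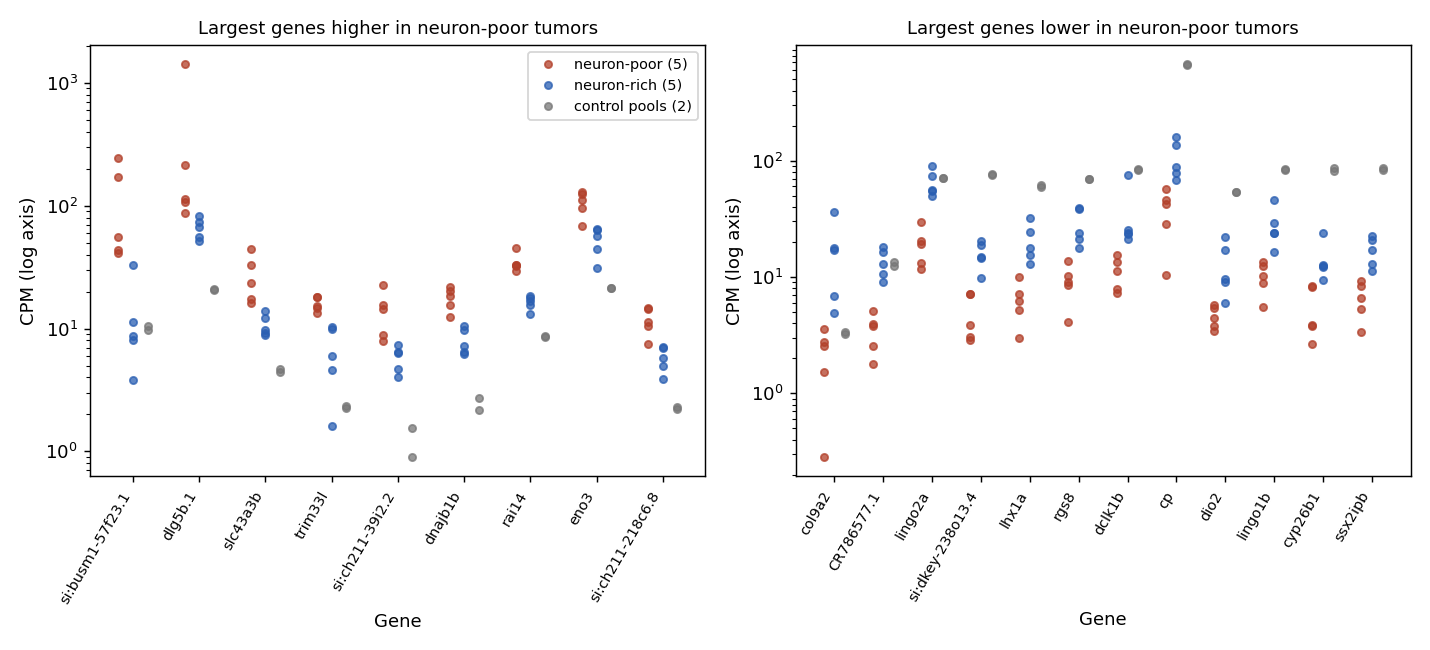
CPM on a log axis of the 9 abundant genes higher in neuron-poor tumors (left panel) and the 12 largest lower ones (right panel), with 1 point per neuron-poor tumor (red), neuron-rich tumor (blue) and control pool (gray). The genes were picked because red and blue do not overlap. Gray points lie below both tumor groups for dlg5b.1, rai14 and eno3, and above both for cp, rgs8 and cyp26b1, while for lingo2a they lie within the blue points.

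Only 9 of the 26 higher genes averaged at least 10 CPM in neuron-poor tumors. The largest was si:busm1-57f23.1 (ENSDARG00000074425), with 170.0, 43.4, 247, 41.5 and 55.4 CPM in neuron-poor tumors, against 3.81, 8.09, 8.70, 11.2 and 32.6 CPM in neuron-rich tumors and 9.71 and 10.4 CPM in the control pools, a log2 fold change of 3.12 (SE 0.66). Tumors 5 and 1 were far above the rest, and neuron-rich tumor 9 was nearest to the lowest neuron-poor tumor. The scaffold gene dlg5b.1 (ENSDARG00000090949) had 86.8, 214, 114, 108 and 1416 CPM in neuron-poor tumors, against 51.4, 82.3, 67.3, 55.96 and 74.2 CPM in neuron-rich tumors and 21.02 and 20.7 CPM in the control pools. Most of the difference in the mean came from tumor 10, and tumor 1 was barely above tumor 4.

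The genes rai14, dnajb1b and eno3 differed with less spread. The actin-binding ankyrin-repeat gene rai14 (ENSDARG00000039974) had 32.8, 45.5, 29.5, 32.8 and 32.2 CPM in neuron-poor tumors, against 15.5, 17.7, 13.1, 18.5 and 16.7 CPM in neuron-rich tumors and 8.65 and 8.52 CPM in the control pools, a log2 fold change of 1.08 (SE 0.14). The heat-shock co-chaperone gene dnajb1b (ENSDARG00000041394) had 21.9, 18.4, 15.5, 20.4 and 12.5 CPM in neuron-poor tumors, against 10.5, 9.71, 6.47, 6.204 and 7.23 CPM in neuron-rich tumors and 2.17 and 2.72 CPM in the control pools. For both, the lowest neuron-poor tumor was above the highest neuron-rich tumor and all tumors were above the pools. The enolase gene eno3 (ENSDARG00000039007), known as the muscle form of this glycolytic enzyme, had 96.2, 130.3, 68.7, 110.3 and 124 CPM in neuron-poor tumors, against 64.01, 64.1, 31.04, 56.8 and 44.7 CPM in neuron-rich tumors and 21.6 and 21.3 CPM in the control pools.

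Of the other higher genes, slc43a3b, whose mammalian counterpart transports purine bases, averaged 26.9 ± 11.7 CPM in neuron-poor and 10.8 ± 2.16 CPM in neuron-rich tumors with tumor 1 highest. The gene trim33l averaged 15.9 ± 2.09 CPM in neuron-poor and 6.49 ± 3.68 CPM in neuron-rich tumors, si:ch211-39i2.2 averaged 13.9 ± 5.93 CPM in neuron-poor and 5.76 ± 1.37 CPM in neuron-rich tumors and si:ch211-218c6.8 averaged 11.6 ± 3.02 CPM in neuron-poor and 5.73 ± 1.37 CPM in neuron-rich tumors. Controls were at 4.56, 2.31, 1.23 and 2.27 CPM for these 4 genes. The 26 also held 5 genes under 1 CPM, and their count was 2 on the log2(FPKM + 1) scale and 4 when scaled on tumor genes.

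Glial and precursor lists differed by less at the median than neuron lists. Neural progenitor genes had a median log2 fold change of -0.26 over 30 genes. Of these, 5 were lower without overlap and sox1b alone by 2-fold, beside 4.33% and 1.71% of all genes. The progenitor factor gene sox1a had 3.99, 3.92, 5.56, 5.80 and 5.54 CPM in neuron-poor tumors, against 11.9, 8.66, 8.29, 9.27 and 11.04 CPM in neuron-rich tumors and 40.1 and 39.1 CPM in the control pools, while the Notch ligand gene dld went the other way, at 11.9 to 79.2 CPM in neuron-poor and 9.71 to 29.2 CPM in neuron-rich tumors. Radial glia and astroglia genes had a median of -0.34 over 21 genes. Of these, 1 (ndrg3a) was lower without overlap and none by 2-fold, beside 4.33% and 1.71% of all genes. The brain aromatase gene cyp19a1b of radial glia varied widely, with 28.97, 1.54, 38.9, 14.8 and 37.1 CPM in neuron-poor tumors, against 169, 23.01, 30.3, 115 and 89.8 CPM in neuron-rich tumors and 663 and 669 CPM in the control pools, tumor 2 lowest and tumors 3 and 7 highest.

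At the median, oligodendrocyte precursor genes were nearly level between the tumor groups, at -0.14 over 24 genes and -0.05 without tumor 6. In the edgeR test against controls 12 of 24 genes were higher and 9 lower in neuron-poor tumors than in controls, against 13 higher and 8 lower in neuron-rich tumors, beside 25.1% and 25.9% of all genes in neuron-poor and 20.2% and 21.6% in neuron-rich tumors. Their list score was 5.83, 5.90, 6.05, 6.05 and 5.94 in neuron-poor and 6.19, 6.27, 6.16, 6.21 and 6.07 in neuron-rich tumors, against 4.64 and 4.64 in the pools. The scores did not overlap, but the gap between tumor 8 and tumor 9 was small. Of the 24 genes, 3 were lower without overlap, beside 4.33% of all genes. Among them the proteoglycan gene cspg5a, which neurons also express, was the 2-fold lower member, beside 1.71% of all genes. It had 26.9, 27.4, 47.2, 45.9 and 48.6 CPM in neuron-poor tumors, against 88.4, 97.6, 81.4, 65.2 and 74.97 CPM in neuron-rich tumors and 283 and 288 CPM in the control pools. The precursor receptor gene gpr17 had 1516, 1482, 1304, 1418 and 1239 CPM in neuron-poor tumors, against 1208, 953, 1133, 1450.1 and 1347 CPM in neuron-rich tumors and 5.90 and 5.89 CPM in the control pools, and the groups overlapped, with a log2 fold change that turned negative with scaling on tumor genes.

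Myelin genes split between their copies. The mature oligodendrocyte list had a median of 0.04 over 17 genes, negative with library size scaling, with scaling on tumor genes and without tumor 2 (-0.04). Only aspa, an enzyme gene of oligodendrocytes, was 2-fold lower without overlap, beside 1.71% of all genes. The myelin basic protein gene mbpa had 587, 769, 707, 297 and 965 CPM in neuron-poor tumors, against 1408, 1609, 969.5, 966 and 1105 CPM in neuron-rich tumors and 4544 and 4546 CPM in the control pools, with tumor 10 at 965 CPM just under tumor 7 at 966 CPM and all tumors below the pools. Its copy mbpb had 695, 799, 254, 1009 and 524 CPM in neuron-poor tumors, against 293, 333, 468, 438 and 311 CPM in neuron-rich tumors and 76.4 and 72.1 CPM in the control pools, with log2 fold changes between the tumor groups of -0.87 (SE 0.26) for mbpa and 0.83 (SE 0.29) for mbpb. The myelin protein gene plp1a was at 318 to 604 CPM in neuron-poor and 83.1 to 408 CPM in neuron-rich tumors, with neuron-rich tumor 9 alone below 318 CPM. For mbpb the groups overlapped through neuron-poor tumor 5. Only uniquely aligned reads entered the counts, by the study's methods. Reads matching both copies equally are thus missing from both, and the level of mbpa beside that of mbpb is uncertain.

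List scores of cell division genes were far above the pools in all tumors and overlapped between the groups, which did not hold for every single gene. Of 48 mitosis genes, 46 had a positive log2 fold change (median 0.38), 1 did not overlap and none was 2-fold higher without overlap, beside 1.67% and 0.124% of all genes. The mitosis score was 7.17, 7.19, 6.63, 7.27 and 6.70 in neuron-poor and 6.82, 6.30, 6.89, 6.64 and 6.45 in neuron-rich tumors, against 1.24 and 1.29 in the pools. Tumors 8, 2 and 1 were highest and tumor 4 was lowest, while tumors 5 and 10 lay among the neuron-rich tumors. The cytokinesis gene racgap1 had 241, 321, 152, 492 and 221 CPM in neuron-poor tumors, against 194, 106, 206, 153 and 126 CPM in neuron-rich tumors and 1.79 and 1.59 CPM in the control pools. The spindle gene tpx2 averaged 404 ± 122 CPM in neuron-poor and 257 ± 37.9 CPM in neuron-rich tumors and 3.29 CPM in controls.

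DNA replication genes differed by less, with a median of 0.11 over 46 genes, 0.05 without tumor 2. The DNA methylation maintenance gene uhrf1 was the one without overlap, beside 1.67% of all genes higher without overlap. It had 534, 485, 399.5, 424 and 444 CPM in neuron-poor tumors, against 387, 365, 394, 389 and 381 CPM in neuron-rich tumors and 4.25 and 4.53 CPM in the control pools, and its log2 fold change was also negative with scaling on tumor genes. Genes of the RB and E2F group had a median of 0.23 over 27 genes. None of them was without overlap, beside 1.67% of all genes higher and 4.33% lower without overlap. The gene E2F1, which encodes an E2F factor, had 65.1, 109, 69.6, 223 and 115 CPM in neuron-poor tumors, against 56.4, 60.8, 106, 86.2 and 89.7 CPM in neuron-rich tumors and 0.532 and 0.453 CPM in the control pools, tumor 8 being highest. Scaling on tumor genes instead of all genes shifted the median gene by -0.25, and under it the medians were 0.12 for mitosis, -0.14 for DNA replication and -0.02 for the RB and E2F group, so the sign of the last 2 flipped.

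Of 24 genes of the p53 response, only zmat3 was 2-fold lower without overlap, beside 1.71% of all genes. These p53 response genes had a median of 0.26, 0.14 without tumor 1. Their cell cycle inhibitor gene cdkn1a had 17.2, 11.4, 15.2, 36.1 and 355 CPM in neuron-poor tumors, against 17.1, 15.5, 10.2, 7.48 and 9.26 CPM in neuron-rich tumors and 6.09 and 5.44 CPM in the control pools. Most of the difference in its mean came from tumor 10, which was 355 CPM beside at most 36.1 CPM in any other tumor, and this tumor was also the high one for dlg5b.1. The p53 target gene sesn1 was at 29.1 to 65.6 CPM in neuron-poor and 40.3 to 113 CPM in neuron-rich tumors.

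Immune genes other than those of the interferon response were higher at the median in neuron-poor tumors. No gene of the immune lists was without overlap, beside 1.67% of all genes higher and 4.33% lower without overlap. Microglia and macrophages are the resident and infiltrating phagocytes of brain. Of 40 genes, 36 had a positive log2 fold change, with a median of 0.73 and of 0.55 to 0.88 as each tumor was left out. The score was 6.15, 5.08, 5.88, 5.29 and 4.75 in neuron-poor and 4.43, 5.33, 4.38, 5.08 and 4.76 in neuron-rich tumors, against 3.01 and 3.03 in the pools. Tumors 1 and 5 were highest, and neuron-rich tumor 4 exceeded neuron-poor tumors 2, 8 and 10. The complement gene c1qb had 100.3, 18.9, 31.6, 41.8 and 9.35 CPM in neuron-poor tumors, against 6.999, 19.2, 4.43, 19.1 and 15.5 CPM in neuron-rich tumors and 1.84 and 1.59 CPM in the control pools. In the edgeR test against controls, 31 of 40 genes were higher and 2 lower in neuron-poor tumors than in controls, against 22 higher and 2 lower in neuron-rich tumors. Over all genes these shares were 25.1% and 25.9% in neuron-poor and 20.2% and 21.6% in neuron-rich tumors.

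Lymphocyte and granulocyte genes rested on fewer tumors. For 28 T cell and NK cell genes the median was 0.49, 0.26 without tumor 1 and 0.81 without tumor 9. The cytotoxic effector gene nkl.1 had 185, 28.6, 30.1, 112 and 6.89 CPM in neuron-poor tumors, against 0.450, 19.3, 12.6, 14.6 and 18.4 CPM in neuron-rich tumors and 0.580 and 0.725 CPM in the control pools, with tumors 1 and 8 highest and tumor 3 close to the pools. Neutrophil and granulocyte genes had a median of 0.77 over 15 genes, all positive, 0.47 without tumor 1 and 0.97 without tumor 10, and the score was 3.60, 1.52, 3.15, 3.28 and 1.68 in neuron-poor and 1.54, 2.33, 1.61, 2.34 and 1.85 in neuron-rich tumors. Tumor 10 was within the neuron-rich range and tumor 2 was just below it. The granulocyte receptor gene csf3r was at 4.05 to 32.96 CPM in neuron-poor and 2.65 to 7.16 CPM in neuron-rich tumors.

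Interferon response genes overlapped widely between the groups. Their median was -0.07 over 36 genes, and it ran from -0.36 to 0.18 as each tumor was left out. The score was 4.05, 3.09, 4.57, 2.97 and 2.65 in neuron-poor and 3.35, 4.23, 2.58, 3.12 and 4.35 in neuron-rich tumors, against 1.400 and 1.301 in the pools. Tumors 5, 9, 4 and 1 were high, 2 in each group. The antiviral gene rsad2 had 6.27, 4.07, 35.2, 1.14 and 3.76 CPM in neuron-poor tumors, against 24.9, 53.1, 2.65, 3.70 and 31.9 CPM in neuron-rich tumors and 8.75 and 9.79 CPM in the control pools, high in the same tumors except tumor 1 and also high in tumor 3. The immunoproteasome gene psmb8a was at 18.9 to 64.5 CPM in neuron-poor and 13.3 to 31.02 CPM in neuron-rich tumors, against 2.28 CPM in controls on average.

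**Figure D4:**
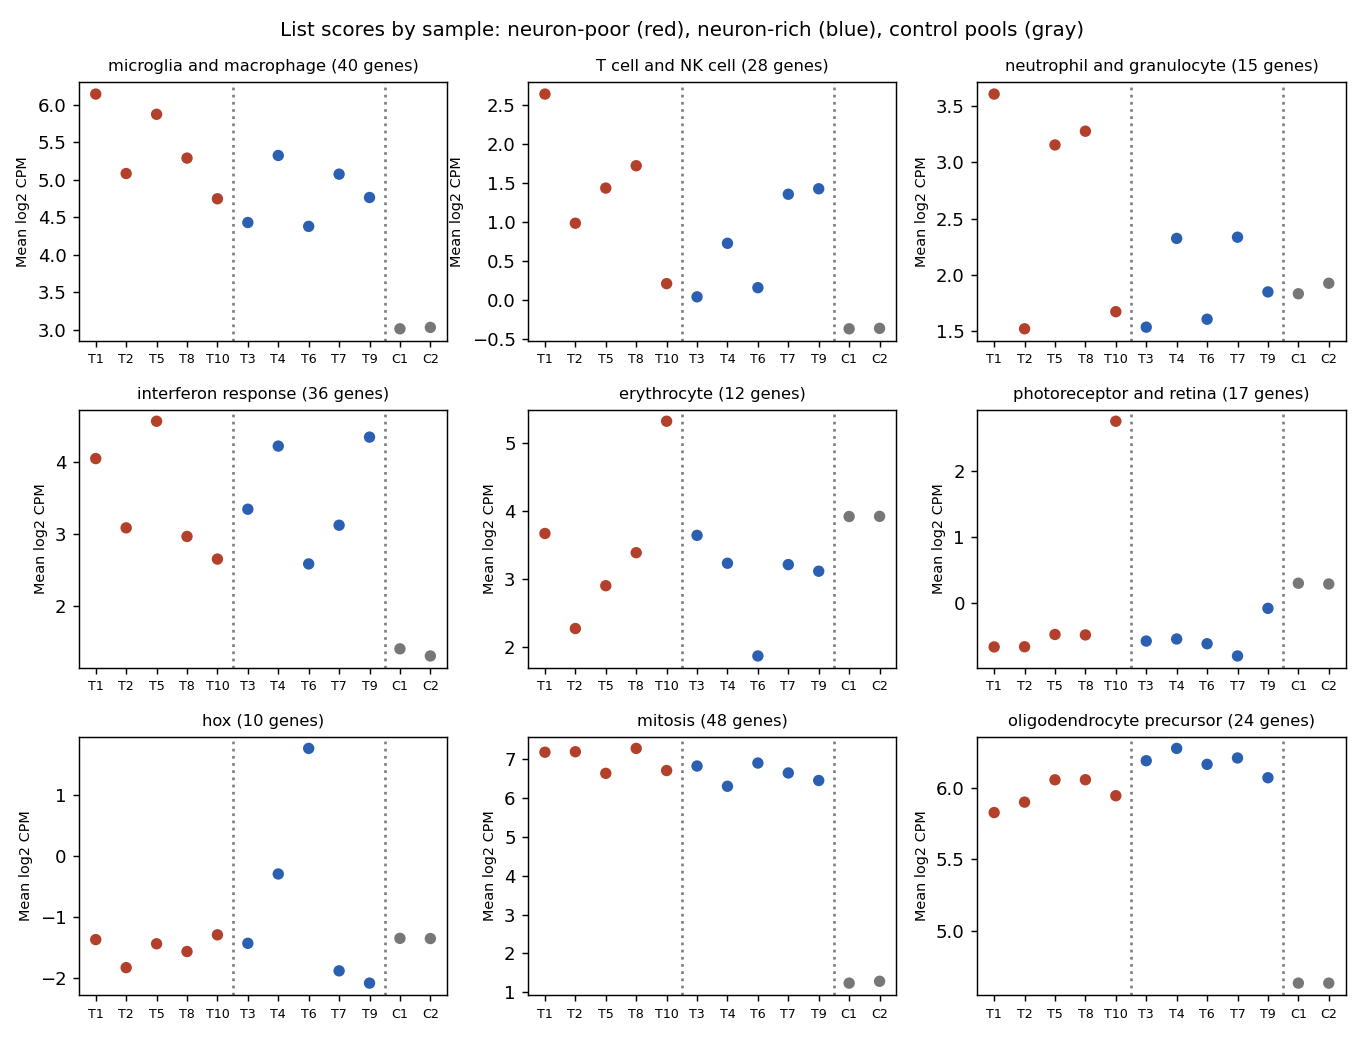
Mean log2 CPM of 9 gene lists in each sample, with the 5 neuron-poor tumors (red, T1, T2, T5, T8, T10), the 5 neuron-rich tumors (blue, T3, T4, T6, T7, T9) and the 2 control pools (gray, C1, C2) from left to right and a separate vertical range in each panel. Each point is 1 sample. Tumor 1 is highest for microglia, T cell and neutrophil lists, tumor 10 for photoreceptor and erythrocyte lists and tumor 6 for hox genes, and only the oligodendrocyte precursor panel shows groups that do not overlap.

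Some lists were carried by 1 tumor. Photoreceptor and retina genes had a median of 1.31 over 17 genes that became 0.01 without tumor 10. The rod transducin gene gnat1 had 0.0950, 0.0992, 0.211, 0 and 50.3 CPM in neuron-poor tumors, against 0.123, 0.131, 0.0829, 0 and 0.407 CPM in neuron-rich tumors and 0.821 and 1.09 CPM in the control pools, and the melatonin-making enzyme gene aanat2, which the pineal gland and retina use, had 0.332, 0.0992, 0.885, 0.285 and 33.4 CPM in neuron-poor tumors, against 0.532, 0.612, 0.332, 0.597 and 0.916 CPM in neuron-rich tumors and 1.06 and 0.997 CPM in the control pools. Both were high in tumor 10 and below the pools in every other tumor. Where gnat1 had 0 counts, in tumors 8 and 7, 3 counts would be 0.135 and 0.120 CPM of the library total before scaling. This is an approximate upper limit for a count of 0. Erythrocyte genes had a median of 0.84 over 12 genes, 0.10 without tumor 10, and the globin gene hbba2 was 88.9 CPM in tumor 10. Hox genes, which pattern the hindbrain and spinal cord, had a median of -1.51 over 10 genes, -0.04 without tumor 6. The gene hoxb7a had 0.237, 0.0496, 0.548, 0.428 and 0 CPM in neuron-poor tumors, against 0.0819, 0.394, 32.9, 0.557 and 0 CPM in neuron-rich tumors and 0.0483 and 0 CPM in the control pools, and hoxb3a had 16.6 CPM in tumor 10, 18.8 CPM in tumor 4 and 68.6 CPM in tumor 6, with at most 1.71 CPM in the other tumors. Where in the brain each tumor lay is not given in the labels, and its part in these values was not tested.

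In the vessel, matrix and other tissue lists, flt4 was the only gene without overlap, beside 1.67% of all genes higher and 4.33% lower without overlap. Endothelial and pericyte genes had a median of 0.09 over 38 genes, negative with scaling on tumor genes. Of these, flt4 was the only one 2-fold lower without overlap, beside 1.71% of all genes. Genes of meninges, collagen and matrix had a median of -0.05 over 30 genes, -0.25 without tumor 9 and 0.06 without tumor 4, yet the matrix gene tnc had 5.37, 20.7, 13.9, 9.60 and 14.9 CPM in neuron-poor tumors, against 37.3, 43.9, 28.1, 19.1 and 22.9 CPM in neuron-rich tumors and 140.2 and 141 CPM in the control pools, overlapping between tumors 2 and 7, and the fibronectin gene fn1a was at 10.1 to 75.7 CPM in neuron-poor and 8.70 to 31.1 CPM in neuron-rich tumors. Skeletal muscle genes had a median of -0.15 over 17 genes, which was -0.41 without tumor 5 and 0.03 without tumor 3. Choroid plexus and ependyma genes had a median of -0.53 over 15 genes, all negative, -0.92 without tumor 10 and -0.34 without tumor 4. None of them was without overlap, beside 4.33% of all genes lower without overlap. Of 4 lens and cornea genes the median was -0.25 and 0.27 without tumor 7, and the keratin gene krt5 was 91.3 CPM in tumor 7 beside at most 6.22 CPM in the other tumors. Mitochondrial genome transcripts had a median of -0.04 over 13 genes.

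Metabolic and stress lists were level as lists, and few of their genes did not overlap between the groups. Hypoxia and glycolysis genes had a median of -0.03 over 41 genes, 0.03 without tumor 1. Of the 41, 2 were higher without overlap and 1 of these by 2-fold, beside 1.67% and 0.124% of all genes. Besides eno3, the vascular growth factor gene vegfaa did not overlap, at 46.1, 35.1, 30.1, 38.9 and 35.1 CPM in neuron-poor tumors, against 27.3, 18.3, 21.3, 20.6 and 14.6 CPM in neuron-rich tumors and 16.7 and 16.2 CPM in the control pools, a log2 fold change of 0.86 (SE 0.16). All tumors except neuron-rich tumor 9 lay above both pools for vegfaa. The gene ankrd37 was at 3.37 to 11.2 CPM in neuron-poor and 1.83 to 4.48 CPM in neuron-rich tumors. Immediate early and stress genes had a median of 0.16 over 32 genes, negative with scaling on tumor genes and without tumor 5 (-0.03). Of these, 2 were higher and 1 lower without overlap, beside 1.67% and 4.33% of all genes. The 2-fold higher member was dnajb1b, beside 0.124% of all genes, and the immediate early gene fosab was highest in tumor 6 at 49.2 CPM. Cholesterol synthesis genes had a median of -0.13 over 25 genes, 2 of them higher and 1 lower without overlap, beside 1.67% and 4.33% of all genes.

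A panel of 18 genes, called the study panel, was drawn mainly from the study but also held gpr17 and erbb3b, which its text does not name. Of the 18, 1 (pax2a) was lower without overlap, beside 4.33% of all genes. The others overlapped between the groups. The panel of 18 genes had a median of 0.07, negative with library size scaling and with scaling on tumor genes. The chromatin adaptor gene rbbp4 had 577, 585, 632, 697 and 492 CPM in neuron-poor tumors, against 538, 486, 555, 555 and 409 CPM in neuron-rich tumors and 66.8 and 71.02 CPM in the control pools, and the deacetylase gene hdac1 had 601, 538, 479, 764 and 508 CPM in neuron-poor tumors, against 538, 441, 587, 513 and 392 CPM in neuron-rich tumors and 145 and 144 CPM in the control pools. Tumor 9 was the lowest tumor and tumor 8 the highest for both. The oligodendrocyte lineage factor gene olig2 averaged 701 ± 129 CPM in neuron-poor and 553 ± 118 CPM in neuron-rich tumors and 53.3 CPM in controls. For sox10, a factor of the same lineage, the means were 1157 ± 199 CPM in neuron-poor and 986 ± 189.9 CPM in neuron-rich tumors and 38.9 CPM in controls. The stem cell factor gene sox2 averaged 989 ± 108 CPM in neuron-poor and 964 ± 209.6 CPM in neuron-rich tumors and 52.3 CPM in controls. Their log2 fold changes were 0.34 (SE 0.16), 0.23 (SE 0.15) and 0.04 (SE 0.14) in that order, and scaling on tumor genes turned the sign of those for rbbp4, hdac1, sox10 and sox2. Without tumor 4 the value for sox10 was 0.14, and without tumor 9 that for sox2 was -0.07.

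Among the other panel genes, the receptor gene erbb3b had a log2 fold change of 0.40 (SE 0.15) and erbb3a of -0.23 (SE 0.25), with neuron-rich tumor 9 highest for erbb3a at 727 CPM. Without tumor 9 the value for erbb3a was 0.04, and without tumor 8 that for erbb3b was 0.26. The precursor factor gene sox8b averaged 327 ± 62.5 CPM in neuron-poor and 328 ± 81.6 CPM in neuron-rich tumors. The proneural gene ascl1b (ENSDARG00000101628) varied within both groups, with 62.6, 46.5, 12.9, 50.4 and 18.3 CPM in neuron-poor tumors, against 80.5, 40.1, 87.8, 24.1 and 16.4 CPM in neuron-rich tumors and 1.88 and 1.95 CPM in the control pools. The chromatin gene mbd3a and the reference gene metap1 had log2 fold changes of 0.21 (SE 0.10) and 0.10 (SE 0.09) (0.16 for metap1 without tumor 10), both negative with scaling on tumor genes. The neuronal factor genes neurod1, neurod6a and pax6a were lower at the mean, with log2 fold changes of -1.44 (SE 0.42), -1.26 (SE 0.46) and -0.98 (SE 0.37), and neurod6a was at -0.71 without tumor 3. All 3 overlapped between the groups, neurod1 being at 17.1 to 68.2 CPM in neuron-poor and 49.2 to 169 CPM in neuron-rich tumors.

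**Figure D5:**
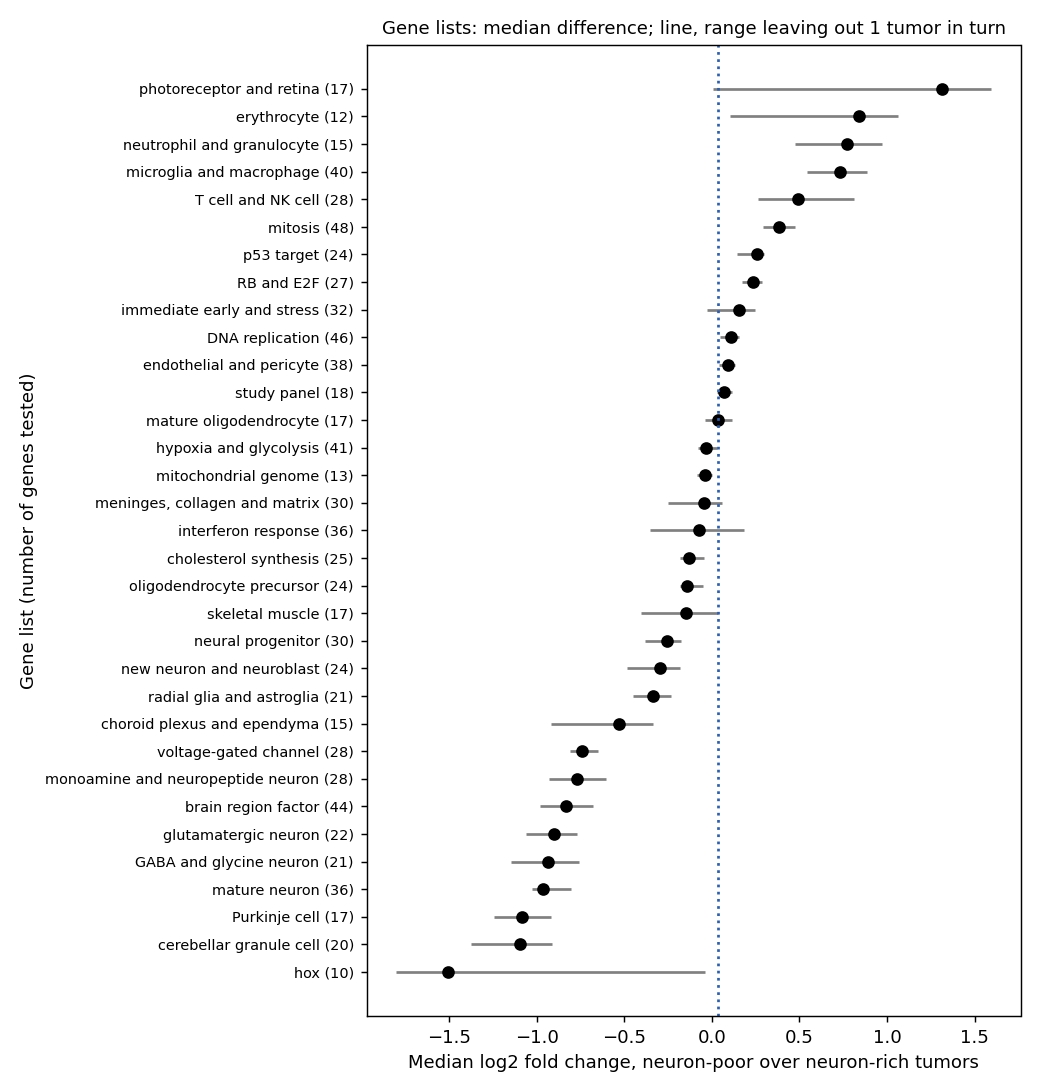
Median log2 fold change of neuron-poor over neuron-rich tumors for the lists with at least 10 genes tested (points), with the range of that median as each tumor was left out in turn (gray lines) and the median of all 20957 genes (dotted line, 0.04). The 7 lists of neuron types and channels lie between -0.74 and -1.10 and stay below 0 throughout. The groups were formed on mature neuron genes and keep that split when 1 tumor is left out, so this is a description. The photoreceptor, erythrocyte and hox lists reach close to 0 when 1 tumor is left out.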

How the data were processed

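RNA from 10 tumor brains and 2 control pools was sequenced single-end as libraries a and b. The authors deposited whole-number read counts per Ensembl gene and FPKM values that the authors computed from such counts and gene length. GSNAP, HTSeq, DESeq2 and GRCz10 are named in the submitters' processing notes. By the study's methods, reads were aligned with GSNAP and HTSeq counted those with a unique alignment; reads matching several gene copies equally were dropped. Strand handling is not given in the sources used here. A deposited table of the authors' own comparison, with fold changes and p-values, was not used.

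Libraries a and b were summed, giving 18498108 to 24953666 counts per tumor, and genes passing filterByExpr were scaled by TMM and fitted in edgeR 4.0.16 (R 4.3.3, glmQLFit) with neuron-poor tumors, neuron-rich tumors and controls as groups. Standard errors were the size of the log2 fold change over the square root of its F statistic. The fit shares its estimate of spread over all groups, so the near-repeat control pools can lower these errors, also between tumor groups. No gene was tested between the tumor groups, since they were chosen from these values, and only 5 technical measures were. Controls were compared by glmQLFTest with Benjamini-Hochberg adjustment over 20957 genes. List scores were means of log2 CPM with a prior count of 2. Where rows shared a symbol, the row with the highest mean count stood for it.

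Genes named were the largest separating genes (up to 12 in each direction) averaging 10 CPM or more in either tumor group, up to 4 members of each list with the largest change and at least 5 CPM, and all genes of the study panel. Other named genes were members of a list that separated the groups, genes at a threshold or genes chosen after their values were seen. Groups, lists and tests were chosen with earlier results of these data known. The alternatives were other scalings, DESeq2 1.42.0, other filters, single libraries, FPKM, other folds and leaving out samples. P-values measure the spread between these samples, and the control pools as labelled were nearly technical repeats.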

Additional observations from a re-analysis of the deposited data

Results flagged for a closer look

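In 304 groups of 5 tumors (34 lists and 118 genes, each in both groups), 14 held a sample farther from the rest than Dixon's 95% value allows on the log2 scale, and chance gives about 5% of groups. The number of flags was thus no larger than that share, and the values below are listed as a description only. The groups were not independent, since genes share tumors and lists.

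In the neuron-poor group, tumor 10 was high for the photoreceptor and retina list, at a mean log2 CPM of 2.76, and for gnat1, at 50.3 CPM. Tumor 1 was low for the channel gene kcnc3a (3.28 CPM), the acetylcholine-making enzyme gene chata (1.61 CPM) and the regional factor gene pax2a (0.997 CPM), and tumor 2 was high for rai14 (45.5 CPM).

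In the neuron-rich group, tumor 7 was high for the lens and cornea list, at a mean log2 CPM of 1.86, and for the keratin gene krt5, at 91.3 CPM. Tumor 4 was high for the hypoxia and glycolysis list, at a mean log2 CPM of 4.58, for fn1a at 31.1 CPM and for metap1 at 85.4 CPM. Tumor 6 was high for dclk1b at 74.7 CPM, tumor 9 was low for the myelin gene plp1a at 83.1 CPM, and tumor 3 was low for nkl.1 at 0.450 CPM. Their part in the differences between the groups was not tested beyond leaving out each tumor in turn.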

How the results depend on the processing

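The count of genes higher in neuron-poor than in neuron-rich tumors was 26 and moved widely. It was 17 with library size alone, 4 with TMM from tumor genes, 47 with no filter, 12 with at least 10 counts in every sample, 17 with library a alone, 2 on the log2(FPKM + 1) scale, 12 on the log2(FPKM + 0.1) scale, 66 with the tumors nearest the split left out, 80 at 1.5-fold and 350 with no fold threshold. Leaving out tumors 1 and 10 together, chosen after seeing the data, gave 89. Leaving out each tumor in turn gave 29 (without tumor 6) to 106 (without tumor 10), and leaving out either control pool gave 28. The count of lower genes was 358. It was 872 with TMM from tumor genes, 114 on the log2(FPKM + 1) scale, 994 with the tumors nearest the split left out, 764 at 1.5-fold and 907 with no fold threshold, and 187 (without tumor 1) to 768 (without tumor 5) as each tumor was left out. Of the 384 genes in both counts, all met the same no-overlap and 2-fold rule with DESeq2 scaling and fold changes, without its test. The rule was also met by 362 of them with TMM from tumor genes, 105 on the log2(FPKM + 1) scale and 271 without tumors 1 and 10. With fewer tumors the absence of overlap is met more easily by construction, and a pseudocount lowers the fold of low genes. For the other settings the cause was not tested.

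TMM from tumor genes used 3705 genes that were higher in every tumor than in both control pools. The mean log2 CPM of each tumor group also had to be at least 2-fold above that of controls. This scaling moved the median gene by -0.25. Against controls, leaving out each sample in turn gave 2646 to 4621 genes higher and 2956 to 4680 lower in neuron-rich tumors, the low ends without control pool 2 and pool 1, where the lone pool is assumed to vary like the tumors. In neuron-poor tumors the ranges were 3512 to 5492 higher and 4197 to 5509 lower. No paired analysis was possible because each tumor came from a different fish and the numbers of tumors and control pools in the labels name no shared animal or batch. Genes under 1 CPM rest on few counts, and their folds are imprecise.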
